A study of Oryza sativa with 6 samples.

Results

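The genes described here are the histone genes of rice as the deposited expression table of panicles annotates them. They were found by words in the description or name of each entry (histone H1, H2A, H2B, H3 or H4, histone 3, or histone-fold), after entries whose text names a histone-modifying enzyme, a chaperone or a transcription factor were set aside. The words gave 70 of the 39367 genes of the table. By description, 62 of the 70 are histone proteins: 4 of H1, 16 of H2A, 14 of H2B, 17 of H3 and 11 of H4. A further 5 are other proteins with a histone fold, among them TAF6, a subunit of the general transcription machinery, and a DNA polymerase subunit. The other 3 only mention a histone: the ubiquitin ligase HUB2, the histone-mark reader MRG702 and an S-adenosylmethionine synthetase.

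RNA came from panicles of 2 genotypes with 3 libraries each: CTB3-cr1, which the labels call a CTB3 knockdown and the column headings a knockout, and wild-type Nipponbare, the cultivar it is set against. Every panicle had 1 day of the cold treatment that the labels abbreviate CS-PT, and no panicle without cold was analysed here, so no value below is a response to cold. CTB3-cr1 was the only CTB3 line, so what CTB3 does and what else separates that line from Nipponbare cannot be told apart. The labels call the 3 samples of a genotype biological replicates and do not say how many plants or panicles went into each. No source used here ties CTB3 to a gene of the table, so the labels were not checked against that gene.

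Histones package DNA: H2A, H2B, H3 and H4 form the nucleosome core, and H1 binds the linker DNA beside it. In plants most core histone genes are transcribed during S phase, when new chromatin is assembled on replicated DNA, and their messenger RNAs are polyadenylated, unlike most such messengers of animals. Variants such as H2A.Z, H3.3 and the centromeric CENH3 are made and deposited with less dependence on replication. In a young panicle, floral meristems and developing anthers hold dividing cells, and histone messenger is a common readout of how many cells are replicating. In whole panicles, fewer cells of a type and less RNA per cell cannot be told apart.

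The libraries held between 14422565 and 16982031 counts, which sets how well weak genes could be measured. Of the 70 genes, 53 had enough counts for the test, and 46 of those are H1 to H4. Of the 17 left out, 10 had 0 counts in all 6 libraries, which allows at most 0.0315 CPM, counts scaled to a library's total, over the 6 libraries together (3 counts, counting error only). These 10 were 6 genes of H3, 2 of H2B, 1 of H1 and 1 of H2A. The limit does not cover reads lost where gene models overlap. The other 7 had at most 32 counts in all, while the weakest gene tested had 76. Many histone genes encode near-identical proteins, and reads shared between copies may have been split or dropped by the authors' counting. Splitting would make values of single genes less certain than class sums, and dropping would lower both. MADS-box genes, many of which specify floral organs, were present at similar sums in all libraries, with 1834, 1709 and 1842 CPM in CTB3-cr1 and 1822, 1712 and 1624 CPM in Nipponbare. Such a sum is carried by the abundant genes, and single ones varied more. Os03g0753100 was at 34.3, 13.5 and 20.5 CPM in CTB3-cr1 and 14.6, 11.5 and 47.3 CPM in Nipponbare.

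Histone messenger was abundant and spread over several genes of each class. The tested H1 to H4 genes had a median level of 69.2 FPKM (fragments scaled by gene length and library total), against 9.55 FPKM for all tested genes, and 26 of the 46 lay above the 90th percentile of all tested genes (53.1 FPKM). Together the H1 to H4 genes took 0.426%, 0.289% and 0.373% of the counts in the CTB3-cr1 libraries and 0.296%, 0.231% and 0.373% in the Nipponbare libraries. Levels per length were spread over most tested genes of each class. Reaching 90% of the class sum took 3 of 3 tested genes in H1, 5 of 8 in H3 and 7 of 10 in H4. It took 8 of 13 in H2A and 8 of 12 in H2B. The leading genes were Os09g0553100 for H4 at 369.8 FPKM, Os05g0461400 for H2A at 361.9 FPKM, Os03g0390600 for H3 at 332.9 FPKM, Os01g0152700 for H2B at 291.0 FPKM and Os03g0799000 for H1 at 142.9 FPKM, each a mean over 6 libraries. Os03g0799000 made up 66.5% of the H1 sum and Os03g0390600 46.1% of the H3 sum, while Os01g0152700 made up 24.5% of the H2B sum. The model of Os01g0152700 is only 280 bases long, which raises its FPKM. By mean CPM the leading H2B gene was Os03g0279000, at 140.8 CPM against 82.65 CPM for Os01g0152700.

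**Figure D1:**
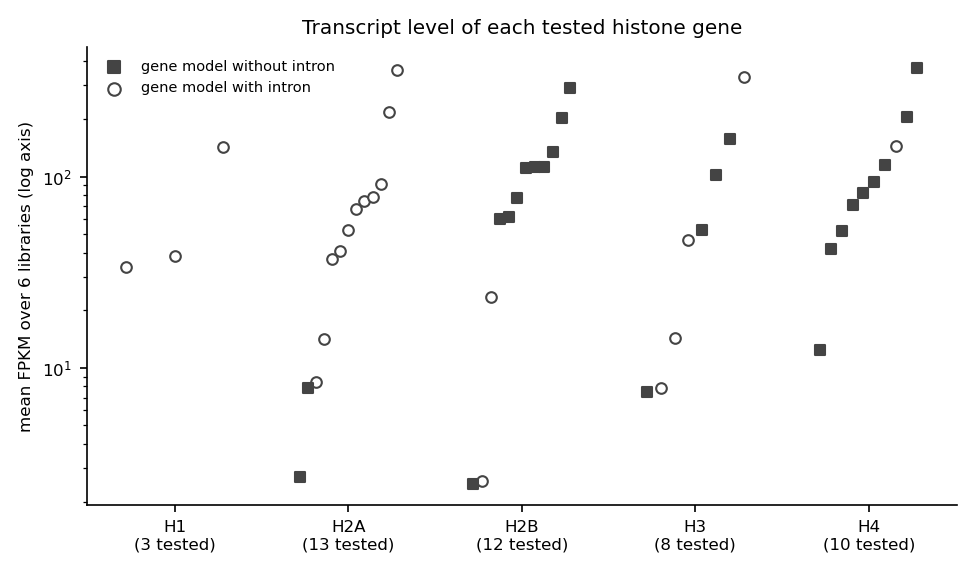
Mean FPKM over the 6 libraries (log axis) of each of the 46 tested H1 to H4 genes, 1 point a gene, ordered by level within its class; filled squares are gene models without an intron and open circles models with one. All 3 tested H1 genes have an intron, and 9 of the 10 tested H4 genes have none.

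The classes also differed in gene structure. In 38 of the 62 H1 to H4 genes (61.3%) the length of the gene model equals its span on the chromosome, so the model holds no intron, against 30.9% of all genes in the table. Models without an intron were the rule in H4 (10 of 11), H2B (11 of 14) and H3 (11 of 17), and the minority in H2A (5 of 16) and H1 (1 of 4). The genes lie on all 12 chromosomes, and 21 of the 62 sit within 20 kb of another. The largest group is a run of 5 H2B genes on chromosome 1, from Os01g0152300 at 2820074 to Os01g0153300 at 2872826, all expressed. The names of 2 of these 5, Os01g0152900 and Os01g0153100, also carry the label F-box protein 2, which goes against their H2B descriptions. On chromosome 3 the H2B gene Os03g0279000 (9492827 to 9493512, plus strand) and the H2A gene Os03g0279200 (9498973 to 9499826, minus strand) face each other with 5461 bases between them. A run of 4 H3 genes on chromosome 6 between 3040365 and 3055622 holds 1 expressed member, Os06g0159450, and 3 with 0 counts. Of these 3, Os06g0159725 lies inside Os06g0159700 on the other strand. On chromosome 7 the H1 model Os07g0184850, with 0 counts, lies inside the H1 gene Os07g0184800 on the other strand. The sources used here do not give the strand setting of the counting, so reads of such a pair cannot be told apart. Coordinates come from the deposited table, and the sources used here do not name its genome build.

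Between the genotypes, histone transcripts averaged slightly higher in CTB3-cr1, by amounts within the spread between libraries. Summed over H1 to H4, they reached 4085, 2945 and 3703 CPM in CTB3-cr1 and 3053, 2409 and 3610 CPM in Nipponbare, or 3578 ± 580 CPM in CTB3-cr1 and 3024 ± 601 CPM in Nipponbare (SD, n = 3 each). The groups overlap, and in each genotype the library numbered 2 is the lowest. Of the 53 tested genes, 0 had an adjusted p under 0.05 by the quasi-likelihood test of edgeR, where 20 of 25636 genes (0.078%) had. An unadjusted p under 0.05 was reached by 3 of the 53, a share near the 5.25% of all tested genes, and DESeq2 called 1, against 0.692% of the genes it gives an adjusted p. The authors' deposited table calls the same 1 gene, against 0.621% of the genes it tests. The log2 fold change, CTB3-cr1 over Nipponbare, was positive in 44 of the 53 genes, against 49.5% of all tested genes, and its median was 0.229, against -0.003 over all tested genes. Single libraries moved that median: it was 0.116 with CTB3-cr1 replicate 1 left out, 0.367 with CTB3-cr1 replicate 2 left out, 0.080 with Nipponbare replicate 2 left out and 0.397 with Nipponbare replicate 3 left out. The larger of the ranges between replicates exceeded the genotype difference in 50 of the 53 genes (94.3%), close to the 94.5% of all tested genes.

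Every CTB3-cr1 library lay above every Nipponbare library in 5 of the 53 genes (9.43%), against 5.11% of all tested genes, and every one below in 0 of them, against 5.36%. These 5 are 2 H2A genes and 1 each of H1, H3 and H4.

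**Figure D2:**
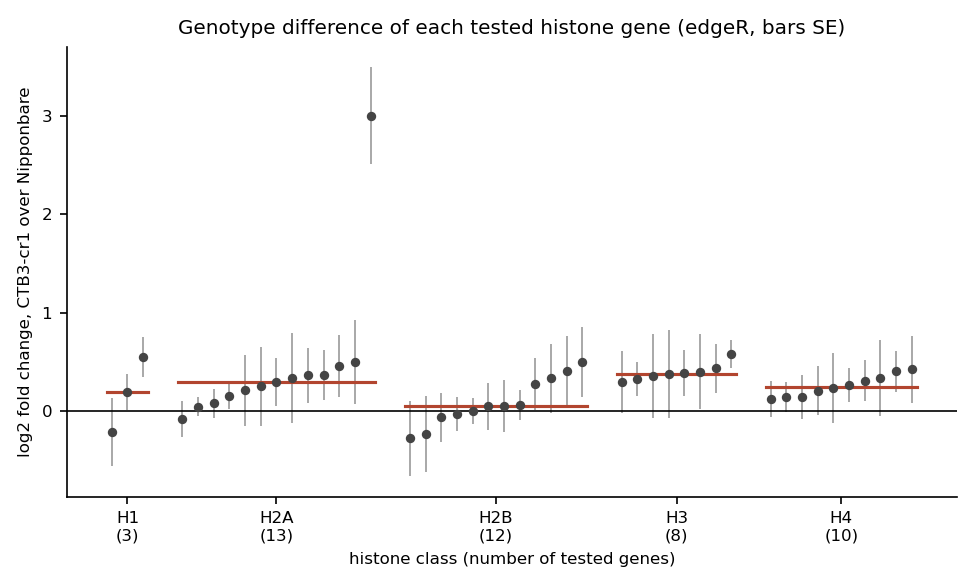
Log2 fold change of CTB3-cr1 over Nipponbare from edgeR for each of the 46 tested H1 to H4 genes, ordered within its class, with bars of 1 approximate SE; red lines are class medians. The point at 3.00 is the weak H2A gene Os01g0974600; the H3 and H4 genes all lie above 0 and the H2B genes on both sides of it.

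H1, the linker histone, had 3 tested genes with a median log2 fold change of 0.196, which was 0.048 with Nipponbare replicate 2 left out and 0.393 with Nipponbare replicate 3 left out. The main H1 gene, Os03g0799000, stood at 233.5, 214.3 and 195.6 CPM in CTB3-cr1 and 183.5, 146.9 and 231.3 CPM in Nipponbare. These groups overlap, and its log2 fold change was 0.20 ± 0.18 (SE, edgeR adjusted p = 0.996). Os04g0253000, which the table names a G1/S-phase gene, held 44.0, 41.2 and 37.8 CPM in CTB3-cr1 and 26.4, 20.9 and 36.5 CPM in Nipponbare. Its groups do not overlap, although the lowest CTB3-cr1 library and the highest Nipponbare library nearly meet. The log2 fold change of 0.55 ± 0.20 (SE) had an unadjusted p of 0.0282 and an edgeR adjusted p of 0.856. Os07g0184800, described as a variant of H1, was highest in 1 Nipponbare library, with 43.2, 27.9 and 40.6 CPM in CTB3-cr1 and 34.6, 26.9 and 68.1 CPM in Nipponbare. Its log2 fold change of -0.22 ± 0.35 (SE) turned to 0.29 without Nipponbare replicate 3.

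H2A, which pairs with H2B in the nucleosome, had 13 tested genes, 12 of them with a positive log2 fold change. Their values ran from -0.08 to 3.00, with a median of 0.296. Leaving out CTB3-cr1 replicate 1 gave a median of 0.135 and leaving out CTB3-cr1 replicate 2 one of 0.557, while leaving out Nipponbare replicate 2 gave 0.111 and leaving out Nipponbare replicate 3 gave 0.467. The weakest of the 13 had the largest difference. Os01g0974600 (chromosome 1, 43070805 to 43071206) was counted 27, 27 and 42 times in CTB3-cr1 against 6, 3 and 2 times in Nipponbare. All 3 CTB3-cr1 libraries lie above all 3 Nipponbare libraries, at 1.75, 1.68 and 2.45 CPM in CTB3-cr1 and 0.382, 0.217 and 0.118 CPM in Nipponbare. The log2 fold change was 3.00 ± 0.49 (SE), with an adjusted p of 0.227 in edgeR and 0.00213 in DESeq2. Over the 13 alternative analyses its adjusted p ran from 0.00213 to 0.817. The authors' deposited table gives this gene a log2 fold change of 3.05 and an adjusted p of 0.00211. It adds 2.70 FPKM to an H2A sum of 1054 FPKM, and its model has no intron. The table does not give it the histone family label that 9 of the 16 H2A genes carry. That label is also absent from H4 and H1, where 0 of 11 and 0 of 4 genes carry it.

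The abundant H2A genes differed less. Os05g0461400, described as similar to H2A.2.1, was the most even of the large ones, with 434.1, 427.2 and 406.0 CPM in CTB3-cr1 and 390.6, 361.9 and 391.7 CPM in Nipponbare. Its groups do not overlap, but the log2 fold change was 0.15 ± 0.12 (SE, edgeR adjusted p = 0.996). Os12g0438000 was nearly level across the study, with 68.5, 62.8 and 67.3 CPM in CTB3-cr1 and 64.3, 63.4 and 65.4 CPM in Nipponbare. Os03g0279200, the second most abundant per length, varied far more within a genotype than between genotypes, with 247.5, 88.2 and 219.1 CPM in CTB3-cr1 and 142.0, 78.9 and 217.7 CPM in Nipponbare. Its log2 fold change of 0.34 carried an SE of 0.46. No description in the table names H2A.Z, H2A.X or H2A.W, so these variants were not separated.

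H2B had 12 tested genes whose log2 fold changes lay on both sides of 0, 7 positive and 5 negative, from -0.28 to 0.50 with a median of 0.047. That median was -0.003 with CTB3-cr1 replicate 1 left out, 0.149 with CTB3-cr1 replicate 2 left out, -0.071 with Nipponbare replicate 2 left out and 0.227 with Nipponbare replicate 3 left out. Os03g0279000, named H2B1, held 140.1, 131.0 and 151.2 CPM in CTB3-cr1 and 138.0, 124.3 and 160.5 CPM in Nipponbare. Its log2 fold change was -0.002 ± 0.135 (SE). It is the neighbour of the H2A gene Os03g0279200, and the libraries numbered 2 were at 0.899 of the mean of the other 2 in CTB3-cr1 and at 0.833 in Nipponbare for H2B1, against 0.378 in CTB3-cr1 and 0.438 in Nipponbare for the H2A gene. Os05g0574300 had the smallest p of the class, with 116.3, 56.1 and 102.6 CPM in CTB3-cr1 and 65.9, 38.9 and 89.6 CPM in Nipponbare, overlapping groups and a log2 fold change of 0.50 ± 0.36 (SE, edgeR adjusted p = 0.996). Os01g0153300, at the end of the run on chromosome 1, had 123.3, 75.8 and 119.3 CPM in CTB3-cr1 and 85.0, 62.1 and 115.9 CPM in Nipponbare. Os01g0152700, in the middle of that run, went the other way between libraries, with 70.0, 96.2 and 87.0 CPM in CTB3-cr1 and 83.3, 88.8 and 70.6 CPM in Nipponbare.

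H3, whose tail carries many of the marks that set chromatin states, was the class with the largest median difference, 0.379 over 8 tested genes, all with a positive log2 fold change between 0.29 and 0.58. The median was 0.237 with CTB3-cr1 replicate 1 left out, 0.591 with CTB3-cr1 replicate 2 left out and 0.173 with Nipponbare replicate 2 left out. The H3 sum was 816.7, 645.1 and 723.4 CPM in CTB3-cr1 against 604.8, 482.5 and 579.2 CPM in Nipponbare, or 728 ± 85.9 CPM in CTB3-cr1 and 556 ± 64.5 CPM in Nipponbare (SD, n = 3 each). The groups do not overlap in this sum, while they overlap in the sums of the other 4 classes. Taken singly, only 1 of the 8 tested H3 genes had groups that do not overlap. The separation of the sum rests on the abundant genes Os03g0390600 and Os04g0450800, and without this pair the groups overlap. Os04g0450800, named Histone H3.2A, contributed with 158.6, 133.9 and 118.7 CPM in CTB3-cr1 and 99.9, 86.7 and 88.7 CPM in Nipponbare. All its CTB3-cr1 libraries lie above all its Nipponbare libraries, and its log2 fold change was 0.58 ± 0.14 (SE). Its unadjusted p of 0.00411 became 0.590 after adjustment in edgeR, and the authors' deposited table gives an adjusted p of 0.0655. Os03g0390600, the most abundant H3 gene, had 308.7, 344.7 and 291.6 CPM in CTB3-cr1 and 294.7, 262.6 and 196.9 CPM in Nipponbare. These groups overlap by 1 library, with a log2 fold change of 0.33 ± 0.18 (SE, edgeR adjusted p = 0.988). The centromeric histone gene CENH3, Os05g0489800, which marks where the kinetochore assembles, was low, with 17.3, 11.1 and 9.64 CPM in CTB3-cr1 and 10.9, 6.73 and 13.4 CPM in Nipponbare, and its log2 fold change was 0.29 ± 0.32 (SE).

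**Figure D3:**
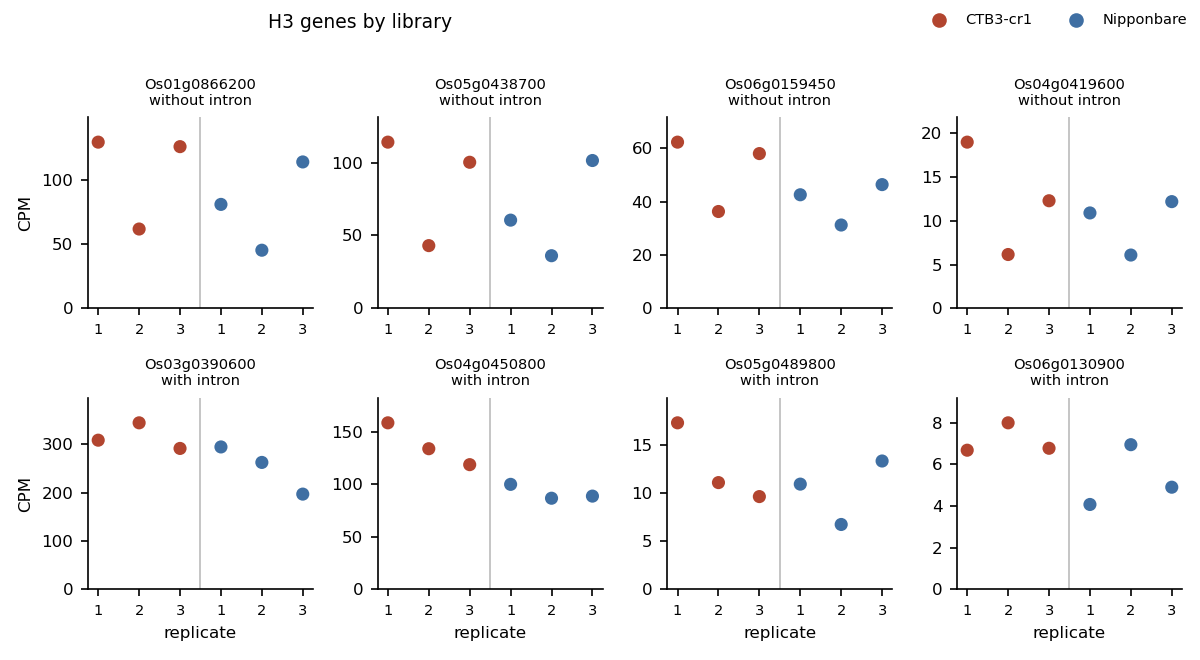
CPM of each of the 8 tested H3 genes in the 3 CTB3-cr1 libraries (red, left) and the 3 Nipponbare libraries (blue, right), each panel with its own axis from 0. In the upper row, of genes without an intron, the library numbered 2 is the lowest of each genotype; in the lower row, of genes with an intron, it is the lowest of both genotypes in none.

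H4, the most conserved of the core histones, had 10 tested genes, all with a positive log2 fold change between 0.12 and 0.42, and a median of 0.247. Leaving out CTB3-cr1 replicate 1 or 2 made the median 0.121 or 0.417, and leaving out Nipponbare replicate 2 or 3 made it 0.064 or 0.480. Os09g0553100 was the most abundant, with 230.0, 214.7 and 243.3 CPM in CTB3-cr1 and 210.2, 172.0 and 241.6 CPM in Nipponbare, and a log2 fold change of 0.14 ± 0.16 (SE). Os01g0835900 held 176.9, 124.8 and 159.2 CPM in CTB3-cr1 and 131.7, 104.8 and 180.2 CPM in Nipponbare. Both genes have overlapping groups, with the highest Nipponbare library above at least 1 CTB3-cr1 library. Os05g0462700, a weak gene, was the 1 H4 gene with groups that do not overlap, at 8.37, 7.88 and 9.17 CPM in CTB3-cr1 and 6.49, 5.14 and 7.56 CPM in Nipponbare (log2 fold change 0.40 ± 0.21 SE, edgeR adjusted p = 0.976).

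The other proteins with a histone fold differed little. Os01g0510800, the TAF6 gene, was at 80.8, 78.0 and 79.8 CPM in CTB3-cr1 and 79.8, 72.3 and 82.0 CPM in Nipponbare. Os01g0680400 and Os04g0658100, which the table describes by their histone fold alone, had log2 fold changes of 0.06 ± 0.13 (SE) and -0.16 ± 0.13 (SE). The polymerase subunit gene Os03g0852300 stood at 0.20 ± 0.21 (SE), and Os01g0846900 had too few counts to be tested. Of the 3 genes that only mention a histone, the S-adenosylmethionine synthetase gene Os01g0293000 was high in 1 library, with 18.2 CPM in Nipponbare replicate 3 and at most 2.60 CPM in any other. HUB2 and MRG702 had log2 fold changes of 0.13 ± 0.11 (SE) and 0.17 ± 0.18 (SE).

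The larger differences among histone genes lay between libraries of the same genotype. In 33 of the 46 tested H1 to H4 genes (71.7%) the library numbered 2 was the lowest of the 3 in both genotypes, against 16.1% of all tested genes. On the log2 scale the libraries numbered 2 minus the mean of the other 2 had a median of -0.474 in CTB3-cr1 and -0.528 in Nipponbare, against 0.003 in CTB3-cr1 and 0.015 in Nipponbare over all tested genes. Both differences were below -0.5 in 21 of the 46 genes (45.7%), against 3.40% of all tested genes. Across the 46 genes the 2 differences had a Pearson correlation of 0.834, and 0.367 across all tested genes. This is a description across genes, which share the same 6 libraries. The pattern was noticed in the data, and the replicate numbers do not link samples of the 2 genotypes by anything in the labels.

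**Figure D4:**
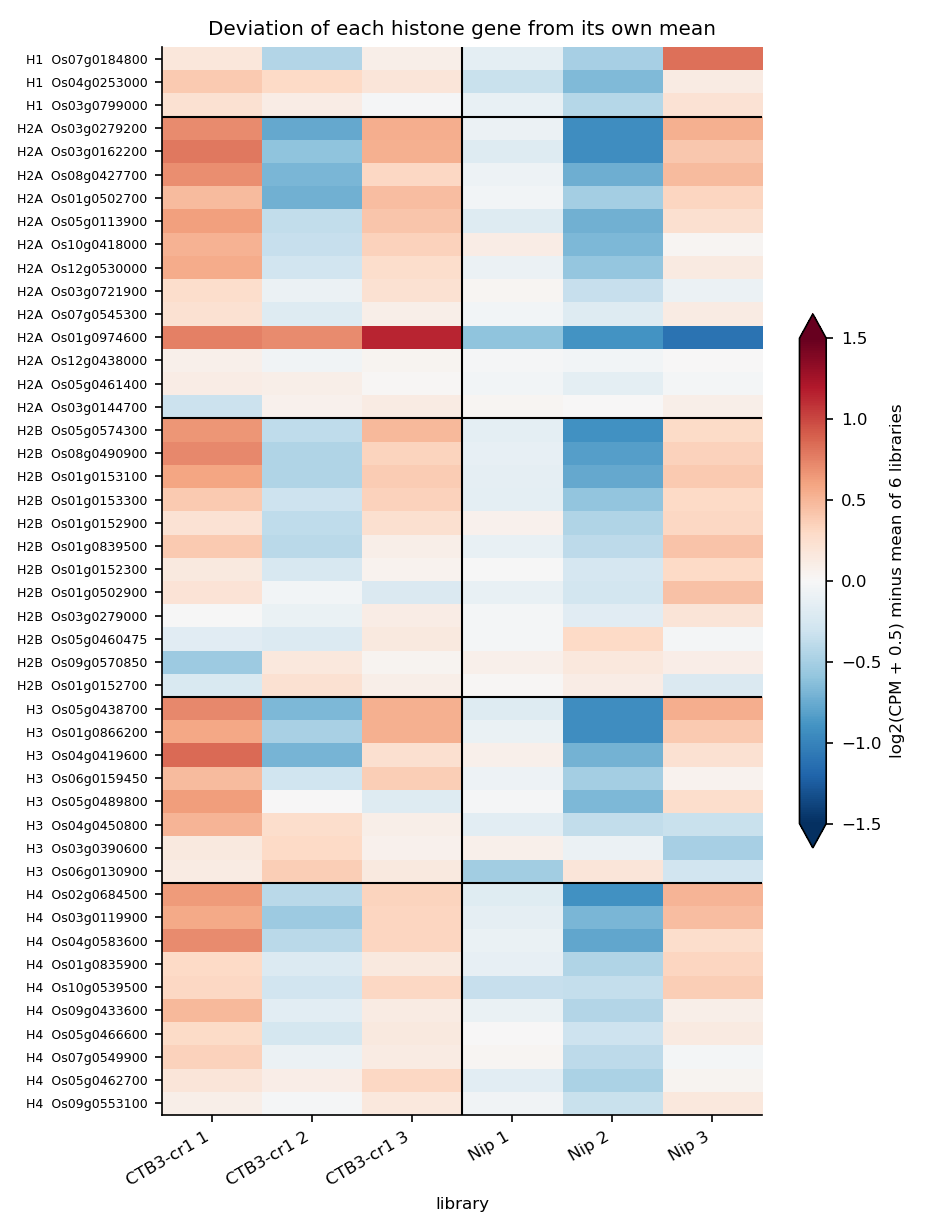
Deviation of each of the 46 tested H1 to H4 genes from its own mean over 6 libraries, as log2(CPM + 0.5), with genes in rows by class, the 3 CTB3-cr1 libraries at left and the 3 Nipponbare libraries at right. The columns of the libraries numbered 2 are blue in most rows of H2A, H2B and H4 and in the H3 rows of genes without an intron. Some rows of each of H2A, H2B and H3 stay pale.

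All 10 tested H4 genes shared this pattern, and in the other classes a part of the genes did: 10 of 13 in H2A, 8 of 12 in H2B, 4 of 8 in H3 and 1 of 3 in H1. In H3 it followed gene structure: all 4 tested genes without an intron had it and 0 of the 4 with an intron did. Os05g0438700, without an intron, had 114.0, 43.1 and 100.2 CPM in CTB3-cr1 and 60.5, 36.1 and 101.4 CPM in Nipponbare. Os01g0866200, also without an intron, had 129.3, 61.7 and 125.8 CPM in CTB3-cr1 and 80.9, 45.3 and 113.9 CPM in Nipponbare. In these 2 genes the libraries numbered 2 were between 0.402 and 0.484 of the mean of the other 2 libraries of their genotype. Os06g0130900, with an intron, was highest in the libraries numbered 2, with 6.69, 8.003 and 6.78 CPM in CTB3-cr1 and 4.07, 6.95 and 4.90 CPM in Nipponbare. In Arabidopsis the replication-coupled H3.1 genes lack introns and the H3.3 genes have them, but the table does not say which rice gene encodes which form. In H2B, 8 of the 10 tested genes without an intron and 0 of the 2 with one had the pattern. In H2A the split ran the other way, with 0 of 2 genes without an intron and 10 of 11 with one. These 2 H2A genes and the 2 H2B genes with an intron were weak, at mean levels from 1.1 to 9.445 CPM. Counting error therefore weighs more on which of their libraries is lowest. In H4 all 9 genes without an intron had it, and so had the 1 gene with an intron, Os02g0684500, at 110.5, 53.4 and 89.4 CPM in CTB3-cr1 and 62.4, 37.5 and 100.8 CPM in Nipponbare. The H2B gene Os08g0490900, without an intron, had 149.9, 66.6 and 114.5 CPM in CTB3-cr1 and 83.4, 51.2 and 115.5 CPM in Nipponbare.

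Genes of DNA replication, which are transcribed in the same phase of the cell cycle, moved with the histone genes from library to library. Of 55 such genes (helicase, polymerase, clamp, clamp loader and others), 53 were tested, 0 passed in either direction in edgeR and 44 lay above 0, the median log2 fold change being 0.162. An unadjusted p under 0.05 was reached by 1 of them, and 1, an unannotated locus with a polymerase delta domain and a negative log2 fold change (-2.47), is called by DESeq2 and in the authors' deposited table. The library numbered 2 was the lowest of both genotypes in 35 of the 53, and both differences were below -0.5 in 23 (43.4%). The 8 markers of dividing cells, PCNA and the MCM2 to MCM7 helicase subunits, all had that order and are among these 35. PCNA, the sliding clamp of the replication fork, stood at 45.8, 25.2 and 40.6 CPM in CTB3-cr1 and 37.0, 26.4 and 39.5 CPM in Nipponbare. Summed, the 8 markers reached 252.4, 131.5 and 219.8 CPM in CTB3-cr1 and 178.8, 127.7 and 239.2 CPM in Nipponbare, and none was at 0. The part of dividing cells in the histone differences was not tested.

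The list for G2 and M phase held A and B cyclins and Aurora kinases, 18 tested of 19, with 15 positive and a median log2 fold change of 0.157. The library numbered 2 was the lowest of both genotypes in 10 of these 18, and its difference from the other 2 libraries had a median of -0.337 in CTB3-cr1 and -0.679 in Nipponbare on the log2 scale. Other groups are linked to histones more directly. The histone chaperones, which carry histones to DNA, had 5 positive and 8 negative among 13 tested of 17, with a median of -0.063. A pair of genes in that list are not chaperones by description, the HMG protein gene Os09g0551600 and the HIRA-interacting protein gene Os05g0155300. In 6 of the 13 tested genes of the list (46.2%) the library numbered 2 was the lowest of both genotypes. Over all tested genes the share was 16.1%. Os01g0896300, the large subunit of CAF-1, which brings H3 and H4 to the replication fork, was among these 6. This gene stood at 13.1, 6.70 and 12.5 CPM in CTB3-cr1 and 9.29, 5.65 and 12.2 CPM in Nipponbare. The list of E2F and retinoblastoma-related genes, many of them regulators of S-phase entry (12 of 12 tested), had a median of 0.084. By description, Os01g0166800 (an E2F target), Os02g0312800 (a homolog of Arabidopsis SNI1) and Os02g0635700 (E2F-associated phosphoprotein) are not E2F or retinoblastoma proteins. Histone-modifying enzymes (44 tested of 49) had a median of -0.035, with 20 positive and 24 negative. The libraries numbered 2 were lowest in both genotypes in 7 of the 12 and in 10 of the 44. In each of these 4 lists 0 genes passed in either direction in edgeR or DESeq2, and an unadjusted p under 0.05 in edgeR was reached by 1 gene of the chaperone list and 2 of the modifying enzymes.

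**Figure D5:**
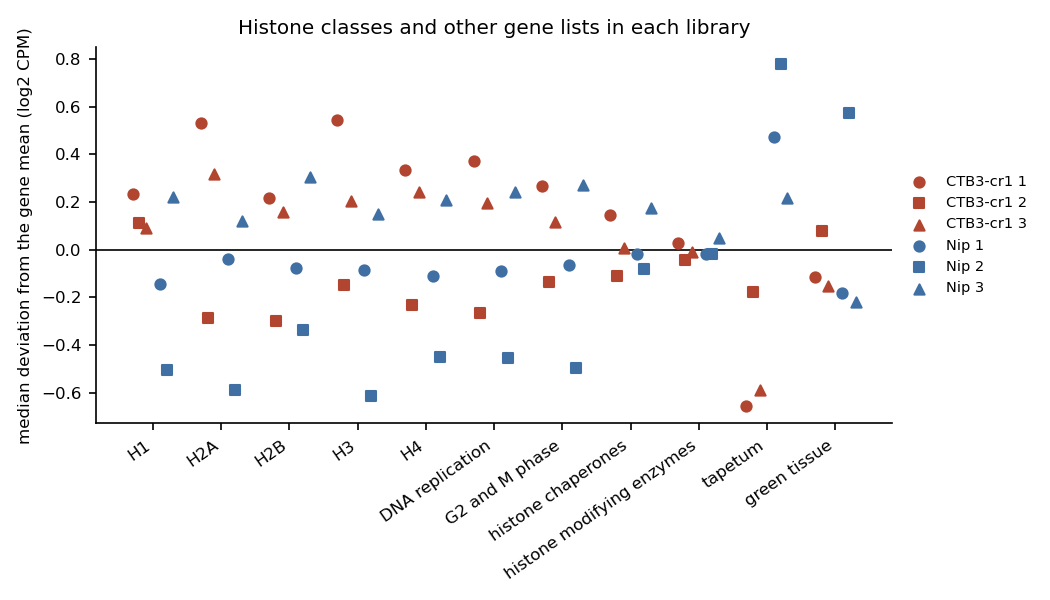
Median over a list's tested genes of the deviation of log2 CPM from the gene's own mean, for each histone class and other list, with 1 symbol a library (CTB3-cr1 red and left, Nipponbare blue and right; circle, square and triangle for the libraries numbered 1, 2 and 3). The squares are the lowest of each genotype for H2A, H2B, H3, H4, DNA replication, G2 and M phase and histone chaperones. Histone-modifying enzymes have the same order but stay near 0, and the tapetum list is below 0 in all CTB3-cr1 libraries.

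Markers of other tissues also differed between these libraries. The 7 tapetum genes, markers of the anther's nutritive layer, summed to 1075, 1365 and 1175 CPM in CTB3-cr1 and 2196, 2512 and 1690 CPM in Nipponbare. Every CTB3-cr1 sum lies below every Nipponbare sum, all 7 genes had a negative log2 fold change (median -0.997), 0 passed in edgeR, 5 had an unadjusted p under 0.05 (5.25% of all tested genes), 4 are called by DESeq2 (0.692%) and 4 in the authors' deposited table (0.621%). Green-tissue genes (20 tested of 27) summed to 2765, 3070 and 2548 CPM in CTB3-cr1 and 2493, 5001 and 2630 CPM in Nipponbare, so Nipponbare replicate 2, the library lowest in histone messenger, was the highest in these genes. No tapetum marker was at 0 in any library, and 5 of the 27 green-tissue genes had 0 counts in all 6. The 27 include Os05g0595300 and Os07g0261200, whose text names CONSTANS-like regulators and not chlorophyll-binding proteins. Os07g0261200 is among the 5 with 0 counts. The part of either tissue in the histone differences was not tested.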

How the data were processed

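RNA-seq libraries were made from total RNA of panicles with a NEBNext Ultra RNA kit and read on an Illumina NovaSeq, per the labels' protocols, which do not state a poly(A) selection. The submitters' processing notes name fastp 0.19.7, HISAT2 and DESeq2, with no role or order. The sources used here give no read counter, strand setting, genome build or annotation. The deposited table holds raw counts per gene and library, and FPKM per library, per the file headers. Per the file headers, the authors also deposited group means of normalised signal, gene length, and p-values and log2 fold changes of their own comparison. Of its 39369 lines, 2 without an identifier (at most 0.000478% of counts) were left out.

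Counts were tested on the whole table with edgeR 4.0.16 in R 4.3.3 (filterByExpr, TMM, quasi-likelihood F test, Benjamini-Hochberg over 25636 genes, threshold 0.05). SEs, taken from the fold change and F, are approximate. TMM-scaled library sizes were used for CPM. Log CPM for replicate differences and library medians used a prior count of 2. Class sums and list medians were described without a test. Library totals of 14422565 to 16982031 counts limit weak genes.

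The members, lists and tests were chosen with earlier results of these data known. List members were found by words in the deposited text. Named genes were, per class, the 2 with the highest mean CPM, the smallest edgeR p, those called in edgeR or the authors' deposited table, and named variants. Also named, after their values were seen, were Os01g0152700, Os12g0438000, Os01g0866200, Os05g0438700, Os08g0490900, Os02g0684500, Os06g0130900, Os01g0293000 and the genes outside H1 to H4 and histone fold. Alternatives were DESeq2 1.42.0, RLE factors, no filter, a replicate block, each library left out, and limma-trend (limma 3.58.1) on log2(FPKM + 1) and log2(FPKM + 0.1) with FPKM above 1 in 3 libraries. Leaving out the libraries numbered 2 of both genotypes was added after seeing the data. The edgeR script was tested on simulated counts.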

Additional observations from a re-analysis of the deposited data

How the results depend on the processing

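Of 13 alternatives, 12 left 0 of the histone genes past an adjusted p of 0.05, and DESeq2 called 1, Os01g0974600, whose edgeR adjusted p ran from 0.260 to 0.817 with 1 library left out. The median log2 fold change of the tested genes ranged from 0.080 to 0.397 with a library left out, and was 0.253 without replicate 2 of both genotypes, with 37 to 48 of 53 genes positive when 1 library was left out. Of 325 values for 25 named genes under the alternatives, 310 kept their sign. Os03g0279000, at -0.002 with an SE of 0.135, was 0.004 without the filter and 0.004 with the replicate block, and 0.007 in both limma-trend fits. With 1 library left out it ranged from -0.085 to 0.119, Os07g0184800 from -0.465 to 0.294, Os01g0835900 from -0.022 to 0.394, Os01g0510800 from -0.025 to 0.082, Os01g0680400 from -0.016 to 0.131 and Os01g0152700 from -0.042 to 0.188. Os01g0510800 was -0.012 without replicate 2 of both genotypes. The cause of these sign changes was not tested.

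The labels do not pair the genotypes by replicate number. Same-numbered libraries correlated at -0.274, 0.367 and -0.071 in their deviations, for replicates 1, 2 and 3. CTB3-cr1 replicate 2 correlated at 0.062 with Nipponbare replicate 1 and at -0.391 with Nipponbare replicate 3. The highest correlation of any pair was between unlike numbers, 0.47 for CTB3-cr1 replicate 1 with Nipponbare replicate 3. A shared origin of same-numbered libraries was not tested. With the number as a block the members' median was 0.227, 0 were called, and 4 genes of the whole table passed in place of 20. DESeq2 called 200 in the whole table, and 5 passed without replicate 2 of both genotypes. Few reads, such as the 6, 3 and 2 counts of Os01g0974600 in Nipponbare, limit what weak genes show, and copies of near-identical sequence limit single-gene values.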
